A study of Mus musculus with 5 samples.

Results

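The genes described here encode receptors, bridging proteins and scavenger receptors by which macrophages recognise and take up dying cells and debris. The members were *Mertk*, *Axl*, *Gas6*, *Pros1*, *Mfge8*, *Timd4*, *Stab1*, *Marco*, *Msr1* and *Cd163*, chosen by gene symbol, and all 10 were found once among the 28693 genes of the count tables. They were followed in single-cell RNA-sequencing libraries of mouse lung taken after bleomycin, a chemotherapy drug that injures the alveolar lining and is followed by fibrosis. All 5 groups carried *Ms4a3-CreER* and *R26-tdT*, in which a tamoxifen-inducible Cre recombinase made from the *Ms4a3* locus turns on the red fluorescent reporter tdT in monocyte-lineage cells. The mice, on a C57BL6/129 mixed background, had received tamoxifen by gavage. The study used adults of both sexes, and the sex of the mice behind each library was not given in the sources used here. The groups were PBS-treated animals, called sham in the study, and animals taken 3, 7, 14 and 28 days after bleomycin was instilled into the trachea. Each group was 1 library, and the number of mice behind a library was not given in the sources used here, so differences between days had no replicate and were not tested.

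Dying cells expose phosphatidylserine on their surface, and phagocytes read it in several ways. *Mertk* and *Axl* are receptor tyrosine kinases of the TAM family that bind phosphatidylserine through the soluble bridging proteins *Gas6* and *Pros1*, while *Mfge8* bridges it to integrins. *Timd4* and *Stab1* bind phosphatidylserine themselves. *Marco* and *Msr1* are class A scavenger receptors that bind modified lipoproteins, bacteria and particles, and *Cd163* takes up haemoglobin bound to haptoglobin. In the lung, alveolar macrophages live in the airspace and clear surfactant, whereas interstitial macrophages live in the tissue around vessels, nerves and airways.

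The 5 libraries held 89769386 to 167506186 UMIs, that is, distinct captured transcripts, in 52800 barcodes. Filters on genes, UMIs and mitochondrial share kept 44772 barcodes, between 7757 and 10280 per library, with medians of 9260 to 14254 UMIs. The day 7 library had no barcode under 4624 UMIs, while the others began at 500 to 502. Each pair of libraries shared between 16 and 31 cell barcodes. Cells were assigned by fixed marker lists that held none of the 10 members, so a name here stands for a gate and not for a proven cell type. Of the kept barcodes, 40877 passed a gate. A cell scoring on the alveolar macrophage list, led by *Car4* and *Krt79*, is called a Car4 macrophage, and one scoring on a list led by *C1qa*, *C1qb* and *C1qc* is called a C1q macrophage. Each was split by *Mmp12* and *Gpnmb*, genes of a macrophage state found in fibrotic lung: Car4-high and C1q-high cells had at least 2 UMIs per 10000 of both genes, and Car4-low and C1q-low cells were all others of the gate. The split is a limit on a range. Between 2 and 4 per 10000 lay 302 of the 677 Car4-high cells and 422 of the 2238 C1q-high cells, while 683 Car4-low and 430 C1q-low cells lay between 1 and 2. All 10 alveolar and all 5 C1q markers were highest in their own gate, against 4 of 6 classical monocyte markers. The same markers set the gates, so this follows largely from the gating and is not an independent check of them. The label of the libraries names immune cells, yet cells gated as epithelium, endothelium and fibroblasts were present too.

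Cell numbers per gate moved strongly between libraries and set the precision of every level below. There were 5759 Car4-low cells in the sham library and 677, 1781, 1648 and 3178 on days 3, 7, 14 and 28. Their Car4-high counterparts numbered 50 in the sham library and 72, 98 and 443 on days 7, 14 and 28, and the 14 cells of day 3 are not described. C1q-low cells were few without injury, with 59 in the sham library against 1086, 2075, 1252 and 691 afterwards. C1q-high cells numbered 33, 185, 567 and 1451 on days 3, 7, 14 and 28. Levels are counts of a gene per 1000000 UMIs (CPM), from UMIs summed over a gate in 1 library. Their 95% Poisson intervals, like the binomial intervals of shares, cover counting error only. Levels of different genes are not compared with each other, since capture at the 3′ end of a transcript differs between genes.

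*Mertk*, a TAM receptor of many resident phagocytes, lies at chr2:128698956-128802894 on the plus strand of GRCm38, where *Gm23172* overlaps it on the same strand and *Gm14011* on the opposite one. In Car4-low macrophages it was at 237, 212, 204, 324 and 257 CPM in the sham library and on days 3, 7, 14 and 28. The lowest of these levels had an interval of 199 to 209 and the highest one of 319 to 330, so the day 14 level lay apart from the rest in counting error. C1q-low macrophages stood lower in every library, at 78.1, 81.9, 102, 196 and 176 CPM. The sham and day 3 levels of C1q-low cells could not be told apart, with intervals of 59.7 to 100.3 and 77.5 to 86.5. Car4-high cells held 186 to 301 CPM and C1q-high cells 77.6 to 195, both within the range of the low cells of their gate or close to it. Classical monocytes, the blood-derived cells that give rise to lung macrophages, held 4.24 to 27.7 CPM over 4 libraries. T cells held 2.31 to 13.9 CPM and B cells 4.11 to 34.2 CPM as the background of free RNA. The monocyte level lay above both beyond the intervals on day 3 only. The order of *Mertk* levels was thus Car4 gates first, C1q gates next and monocytes last.

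*Axl*, the TAM receptor that binds *Gas6* most tightly, lies at chr7:25757273-25788705 on the minus strand. Its levels in Car4-low macrophages were 569, 552, 612, 727 and 771 CPM from the sham library to day 28. All 5 lay above every C1q-low level, which ran 206, 254, 240, 419 and 328 CPM. In thinned cells, each reduced to 2000 UMIs so that depth was equal, a UMI of *Axl* was seen in 63.5% to 76.8% of Car4-low cells. T cells, which should lack the gene and show the background of free RNA, gave 3.19% to 7.50% after the same thinning. Between single Car4-low cells *Axl* was even: the median cell held 5.69, 5.46, 5.75, 7.24 and 7.69 UMIs per 10000, and at most 3.69% of cells in a library had none. Recruited macrophages, meaning cells of the classical monocyte gate with both *Ly6c2* and *Ms4a7*, held 284 CPM of *Axl* on day 3. Classical monocytes without *Ms4a7* held 215 CPM on the same day against 38.9 in the sham library.

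*Gas6*, a soluble ligand of both TAM receptors, had another pattern than they did. It lies at chr8:13465374-13494490 on the minus strand, with *Tmem255b* overlapping on the opposite one. Among macrophages it was highest in C1q-low cells of the sham library, at 214 CPM with an interval of 182.6 to 248.7. After bleomycin the same gate held 24.3, 40.1, 16.4 and 28.3 CPM, between 0.0769 and 0.187 of the sham level. In thinned cells the share of C1q-low cells with a *Gas6* UMI was 32.7% in the sham library and 2.90%, 6.31%, 2.33% and 5.08% on days 3, 7, 14 and 28. It was above T and B cells beyond the intervals in each library except that of day 14, where 2.48% of B cells had a UMI. The sham value rests on 59 cells, and the mean of per-cell levels in place of the summed level gave 339 CPM. Car4-low macrophages held 0.377 to 2.80 CPM. Cells gated as fibroblasts were the highest source outside the macrophages, with 397 to 1002 CPM, a median of 799 and 48 to 155 cells over the libraries. In 37 recruited macrophages of day 7, 12 of 13 *Gas6* UMIs came from 3 cells.

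*Pros1*, or protein S, the other TAM ligand and a plasma anticoagulant, lies at chr16:62854307-62929346 on the plus strand. Unlike *Gas6*, it was higher in Car4-low than in C1q-low macrophages in every library, as the receptors were. Car4-low macrophages held 154, 127, 113, 147 and 169 CPM, and Car4-high cells 110 to 123 CPM. In C1q-low cells the levels were 58.9, 16.8, 40.0, 82.9 and 79.5 CPM, all below the lowest Car4-low level. The lowest C1q-low level, on day 3, had an interval of 14.9 to 19.0 and lay apart from all other days, while those of day 14 and day 28 overlapped.

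*Mfge8*, the secreted bridge between phosphatidylserine and integrins, lies at chr7:79133768-79149060 on the minus strand and differed widely between libraries. C1q-high macrophages of day 28 held 5945 CPM with an interval of 5920 to 5971, against 421 on day 14 and 255 on day 7. The day 28 level was spread over the gate, as the 3 richest cells gave 1.90% of its 211701 UMIs. The day 3 level of 789 CPM came from 356 UMIs, of which 331 lay in 3 of the 33 cells. C1q-low cells held 115, 6.77, 50.3, 119 and 1319 CPM, and the same 3-cell share was 74.4% in the sham library. Car4-high cells held 49.3 CPM in the sham library and 53.5, 195 and 1579 on days 7, 14 and 28. The sham value of Car4-high cells came mostly from 3 cells, and was 23.7 CPM once called doublets were removed.

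Free RNA touches the day 28 levels of *Mfge8*. In that library cells gated as T cells held 154 CPM and B cells 223 CPM, against 8.31 and 7.97 in the sham library. Car4-low macrophages of day 28 held 272 CPM, which was 48.6 times their sham level of 5.59, with an interval of 44.8 to 52.9. After thinning, 27.5% of these cells had a *Mfge8* UMI, with an interval of 25.9% to 29.1%, and so had 24.7% of T cells, with an interval of 22.5% to 27.1%. The overlapping intervals put the Car4-low share at the background of its library, and it is not read as expression. The thinned shares of C1q-low, Car4-high and C1q-high cells were 47.1%, 64.7% and 83.7%, all above the background. Without thinning the shares were 76.3% of Car4-low and 40.9% of T cells, at median depths of 17656 and 3834 UMIs. *Mfge8* was not peculiar to macrophages in level: fibroblasts held 149 to 458 CPM over the libraries.

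*Timd4*, known as Tim4, is carried by long-lived resident macrophages of many tissues and lies at chr11:46810800-46844332 on the plus strand. C1q-low cells held 48.6, 19.4, 2.79, 2.71 and 15.4 CPM, with intervals of 34.4 to 66.8 in the sham library and 13.3 to 17.7 on day 28. The sham level came from 12 of 59 cells, and 68.4% of its UMIs from 3. C1q-high cells gave no *Timd4* UMI on day 3, where the interval reached 8.18 CPM, and 0.0843 to 0.285 CPM later. Car4 macrophages stayed at or under 1.21 CPM. Among all gates the highest levels were in type 1 conventional dendritic cells, which cross-present antigen from dead cells, at 19.5 to 240 CPM with a median of 71.1. A level of 28.2 CPM in classical monocytes of day 3 rested on 218 UMIs in 38 of 711 cells.

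*Stab1*, or stabilin-1, a large scavenger receptor of macrophages and sinusoidal endothelium, lies at chr14:31139013-31168641 on the minus strand, with *Nt5dc2* on the opposite one. In C1q-low macrophages it was at 439 CPM in the sham library, with an interval of 394 to 488, and at 99.2, 158, 31.7 and 61.0 CPM on days 3, 7, 14 and 28. The mean of per-cell levels gave 704 CPM for the sham library. The levels after bleomycin were between 0.0721 and 0.360 of the sham level. C1q-high cells were below the C1q-low cells of every library, at 75.4, 65.4, 20.1 and 22.5 CPM. Car4-low cells held 0.309 CPM in the sham library, where T cells held 0. After bleomycin they held 0.574 to 3.60 CPM, below the T cells of each library, which held 1.23 to 9.55. Endothelium held 107 to 378 CPM. Recruited macrophages already held 59.4 CPM on day 3, when classical monocytes held 30.9.

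*Marco*, the macrophage receptor with collagenous structure, set the Car4-low macrophages of the libraries apart more than *Mertk* or *Axl* did. It lies at chr1:120474538-120505024 on the minus strand. The gate held 705, 514, 574, 235 and 170 CPM from the sham library to day 28, with intervals of 700 to 711 and 167 to 173 at the ends. Day 28 stood at 0.241 of the sham level, with an interval of 0.236 to 0.246. The median cell held 4.62, 1.00, 1.77, 0 and 0 UMIs per 10000, while the upper quartile ran 10.0, 6.10, 7.46, 1.71 and 0.584. Cells without any *Marco* UMI made up 15.8%, 39.1%, 34.0%, 52.3% and 69.3% of the gate. *Mertk* did not follow this course, with medians of 2.17, 1.84, 1.83, 3.02 and 2.31 UMIs per 10000 in the same cells. The median Car4-low cell held 16992, 14547, 16847, 22885 and 17656 UMIs. After thinning, a *Marco* UMI was found in 55.1%, 33.9%, 40.4%, 20.7% and 13.4% of Car4-low cells, against 0.603% to 6.10% of T cells. The T cell level of the gene was 30.2, 4.02, 17.5, 8.19 and 6.47 CPM from the sham library to day 28. C1q-low cells held 7.396 to 42.2 CPM, where 3 cells gave 71.6% of the UMIs on day 3 and 74.9% on day 28. With called doublets removed the C1q-low level of day 7 was 14.1 in place of 32.4 CPM, and the C1q-high level 11.2 in place of 22.7.

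**Figure D1:**
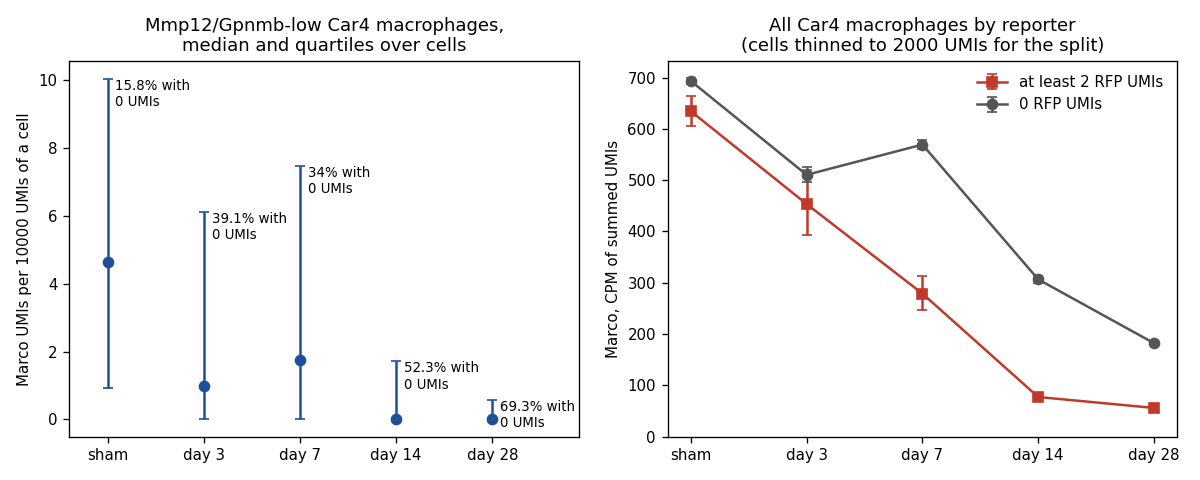
*Marco* in Car4 macrophages. Left, UMIs per 10000 in Car4-low cells by library (point, median cell; bar, quartiles), with the percentage of cells without a UMI. Right, CPM by library in Car4 macrophages with at least 2 and in those with 0 reporter UMIs, with 95% Poisson intervals. The median cell runs from 4.62 in the sham library to 0 on days 14 and 28, and the reporter-positive level is below the reporter-negative one in all 5 libraries.

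*Msr1*, also called SR-A, lies at chr8:39581685-39642673 on the minus strand and took another course from *Marco*. In Car4-low macrophages it was at 49.0 CPM in the sham library, at 150, 106 and 142 on days 3, 7 and 14, and at 54.2 on day 28. The intervals of the sham library and day 28, 47.6 to 50.3 and 52.4 to 56.0, lay close to each other and below all the others. C1q-low cells held 165, 226, 219, 215 and 125 CPM, and C1q-high cells 153 to 355. Days 7 and 14 of C1q-low cells could not be told apart by their intervals. Monocytes already had the transcript, with 76.3 CPM in the sham library and up to 201 CPM on day 7.

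*Cd163*, the haemoglobin-haptoglobin receptor, lies at chr6:124304656-124330527 on the plus strand. Among macrophages it was held by C1q-low cells, at 175, 9.48, 18.2, 2.81 and 10.8 CPM, with an interval of 147 to 207 in the sham library. After bleomycin these were between 0.0160 and 0.104 of the sham level. In thinned cells a UMI was seen in 27.3% of C1q-low cells of the sham library and in 0.499% to 1.88% of those of the other libraries, where it was not above T and B cells beyond the intervals. T cells gave at most 0.227%. The mean of per-cell levels in the sham library was 290.0 CPM. C1q-high cells held at most 0.509 CPM and Car4 macrophages at most 1.11 CPM. Type 2 conventional dendritic cells held 1.78 to 14.1 CPM.

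**Figure D2:**
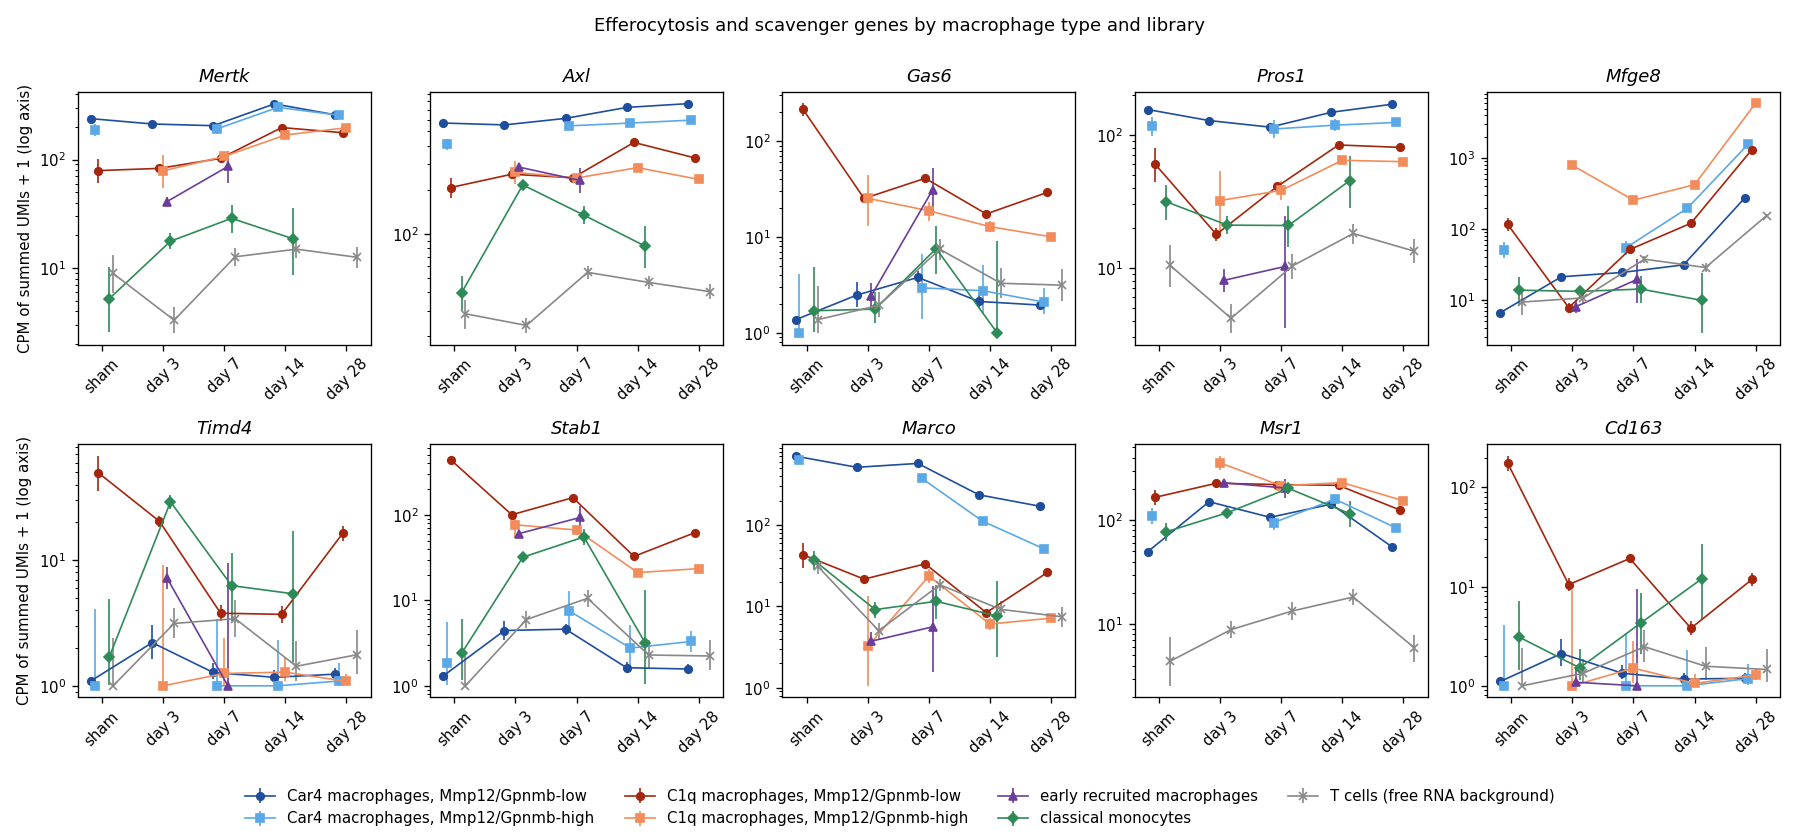
Levels of the 10 genes by library, in CPM plus 1 on a log axis, for 6 macrophage and monocyte gates with T cells as the background, and with 95% Poisson intervals. *Gas6*, *Timd4*, *Stab1* and *Cd163* are highest in C1q-low cells of the sham library among macrophages, *Mertk*, *Axl*, *Pros1* and *Marco* in Car4 macrophages, and *Mfge8* reaches 5945 CPM in C1q-high cells of day 28.

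Between days, the Car4-low gate was compared with its sham library by a 2-fold limit, for the 6 of the 10 members that reached 10 CPM in either library. On day 3, *Mfge8* and *Msr1*, 2 of 6, were at least 2-fold higher, where 4.77% of all genes were, and 0 of 6 were at least 2-fold lower, against 4.23%. The same 2 members were higher on day 7 against 2.58% of genes, with 0 of 6 lower against 1.84%. *Mfge8* and *Msr1* were again higher on day 14 against 3.56%, and *Marco* alone was lower against 3.58%. On day 28 *Mfge8* was higher against 3.49% of genes and *Marco* lower against 3.86%. By thinned shares *Mfge8* was not above the background: its share of Car4-low cells did not exceed those of T and B cells beyond the intervals in any of the 5 libraries. In CPM it lay below both in the sham library and on day 7, where 23.4 CPM stood against 36.5 in T and 47.8 in B cells. It lay above both on day 3, at 20.2 against 9.67 and 4.93 CPM, and on day 14, at 30.2 against 27.6 and 9.22. On day 28 it was also above both, at 272 against 154 and 223 CPM.

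C1q-low macrophages differed more from their sham library, whose 59 cells enter every one of these ratios, and all 10 members reached 10 CPM. On day 3, 7 of 10 were at least 2-fold lower (*Gas6*, *Pros1*, *Mfge8*, *Timd4*, *Stab1*, *Marco* and *Cd163*) against 12.2% of all genes, and 0 were higher against 9.52%. On day 7, 5 were lower (*Gas6*, *Mfge8*, *Timd4*, *Stab1* and *Cd163*) against 8.33%, and 0 higher against 3.59%. On day 14, 5 were lower (*Gas6*, *Timd4*, *Stab1*, *Marco* and *Cd163*) against 11.0%, and the TAM receptors *Mertk* and *Axl* were higher against 5.03%. On day 28, 4 were lower (*Gas6*, *Timd4*, *Stab1* and *Cd163*) against 12.1%, while *Mertk* and *Mfge8* were higher against 5.40%. *Gas6*, *Timd4*, *Stab1* and *Cd163* were thus the members at least 2-fold below the sham level on all 4 days. The counts also include *Marco*, whose sham level of 42.2 CPM lay between those of T and B cells, at 30.2 and 51.2. The *Marco* level of T cells was itself 4.02 CPM on day 3 and 8.19 on day 14. For *Mfge8*, 74.4% of the sham UMIs came from 3 cells, and the per-cell mean was 58.9 CPM in place of 115.

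The other cells of the lung placed these genes in context. By the median over libraries, cells gated as fibroblasts led for *Gas6* at 799 CPM, endothelium for *Stab1* at 153 CPM and type 1 dendritic cells for *Timd4* at 71.1 CPM. Fibroblasts also held *Axl*, at a median of 310 CPM, and endothelium *Pros1*, at 126 CPM. Type 2 dendritic cells and C1q-low macrophages had near-equal medians of *Cd163*, 11.04 and 10.8 CPM. On day 28 *Mfge8* was also at 912 CPM in 76 NK cells and 683 CPM in 157 type 1 dendritic cells, in the same library in which T and B cells held 154 and 223 CPM. Markers of other cell types were present in the macrophage gates to different degrees. The 5 T cell markers summed to 13.2 to 40.6 CPM in Car4-low and 6.40 to 57.0 CPM in C1q-low cells. The 10 alveolar markers summed to 476 to 2170 CPM in C1q-low cells, against 14330 to 22050 in Car4-low cells. The 6 classical monocyte markers summed to 132 to 4252 CPM in C1q-low cells, highest on day 3. The 6 neutrophil markers summed to 277 to 447 CPM in Car4-low and 166 to 414 CPM in C1q-low cells, and to 2091 CPM in classical monocytes of the sham library. The part of these markers in the member levels was not tested.

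**Figure D3:**
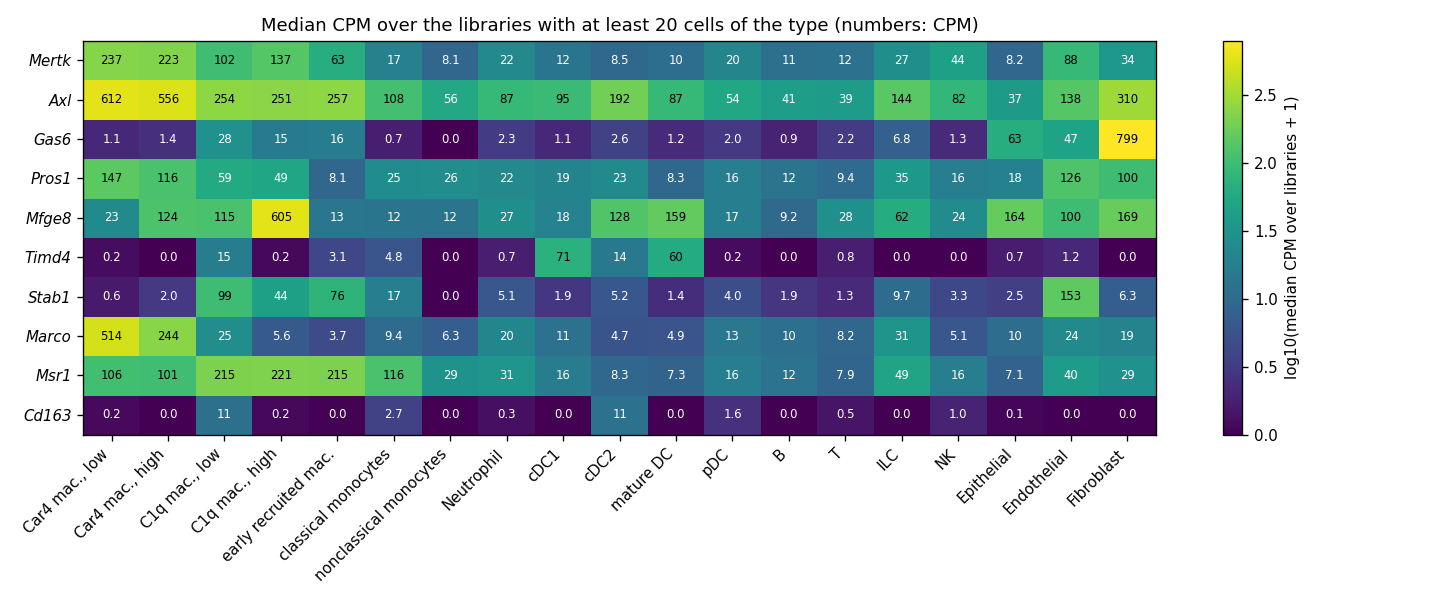
Median level over libraries of the 10 genes (lines) in 19 gates (columns), as CPM, with colour on a log scale. *Timd4* is highest in type 1 dendritic cells at 71.1 CPM and *Gas6* in fibroblasts at 799 CPM, while *Marco* is highest in the Car4 gates.

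To ask how the members separate the macrophage populations, UMIs were summed by gate and library and compared within libraries by edgeR, with the library as a block and adjustment over all genes tested. The libraries serving as replicates came from different days, so the p-values measure only the spread between these libraries. C1q macrophages were first set against Car4 macrophages in 5 libraries and 12869 genes. All 10 members passed an adjusted p of 0.05: 6 were higher in C1q macrophages, where 19.0% of all genes were, and 4 were lower, against 19.5%. Each difference had the same direction in 5 of 5 libraries. For *Mfge8* on day 3 the levels were close, at 28.5 CPM in C1q and 27.0 CPM in Car4 macrophages. Their intervals overlapped, at 25.9 to 31.2 and 24.0 to 30.2, and 331 of the 463 C1q UMIs lay in 3 cells. C1q-low cells of that day stood below Car4-low cells, at 6.77 against 20.2 CPM. Over all genes tested the median log2 difference was 0.01, and over the members it was 1.87.

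The higher members were the ligands *Gas6* and *Mfge8*, the phosphatidylserine receptors *Timd4* and *Stab1*, and the scavenger receptors *Msr1* and *Cd163*. *Stab1* was higher by a log2 fold change of 6.13 ± 0.84 (SE; edgeR adjusted p = 0.00154). *Cd163* stood at 5.64 ± 1.13 (edgeR adjusted p = 0.00733), *Timd4* at 4.86 ± 0.81 (edgeR adjusted p = 0.00342) and *Gas6* at 4.75 ± 0.82 (edgeR adjusted p = 0.00417). These 4 were the genes highest in sham C1q-low cells, and without the sham library their log2 fold changes were 5.34, 4.27, 3.93 and 3.93, all still past the threshold. *Msr1* differed by 1.22 ± 0.20 (edgeR adjusted p = 0.00331). *Mfge8* differed by 2.52 ± 0.63 (edgeR adjusted p = 0.0175), but it did not pass without the day 14 library, at 2.46, or without the day 28 library, at 2.17. *Cd163* was at 6.55 without day 3 and 6.36 without day 28. Without the library block *Mfge8* and *Mertk* did not pass, and the other 8 did.

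The lower members were *Marco* and the TAM receptors with *Pros1*. *Marco* differed by −4.20 ± 0.24 (edgeR adjusted p = 7.49e-05), the smallest adjusted p of the 10 members. *Pros1* followed with −1.45 ± 0.29 (edgeR adjusted p = 0.00723), *Axl* with −1.14 ± 0.11 (edgeR adjusted p = 0.000415) and *Mertk* with −0.87 ± 0.18 (edgeR adjusted p = 0.00901). Both TAM receptors were thus higher in the Car4 gate and both were present in the C1q gate, whereas *Gas6*, their ligand, stood at no more than 2.80 CPM in Car4-low cells.

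**Figure D4:**
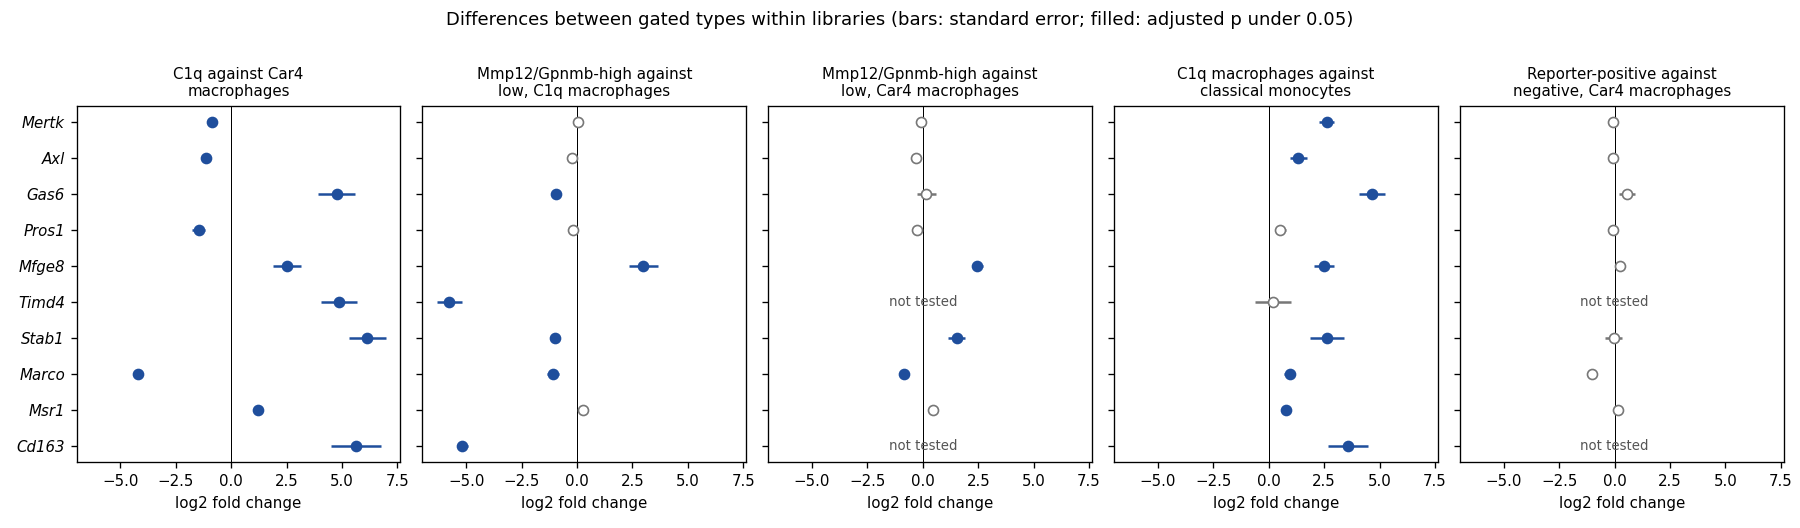
Log2 fold change ± SE of each member in 5 comparisons between gates within libraries (edgeR, library as a block). Filled points have an adjusted p under 0.05. All 10 points are filled for C1q against Car4 macrophages, 6 for C1q-high against C1q-low, 3 for Car4-high against Car4-low, 8 for C1q macrophages against classical monocytes and 0 for the reporter.

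*Marco* and *Stab1* mark the opposite ends of this comparison, and the 250 bases before the start of each are shown to let the reader see the sequence next to each gene. They are from RefSeq on GRCm38.p6, at chr1:120505025-120505274 for *Marco* and chr14:31168642-31168891 for *Stab1*, both on the minus strand and written 5′ to 3′. Capitals mark GAGGAA, the core of sites for the macrophage factor PU.1, and TGCTGA, the half-site of MAF factors, searched on both strands as GAGGAA or TTCCTC and as TGCTGA or TCAGCA.
Marco: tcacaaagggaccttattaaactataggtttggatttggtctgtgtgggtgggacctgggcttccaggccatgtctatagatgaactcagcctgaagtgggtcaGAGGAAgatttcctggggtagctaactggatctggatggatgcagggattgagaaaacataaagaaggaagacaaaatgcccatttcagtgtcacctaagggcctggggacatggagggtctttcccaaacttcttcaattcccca
Stab1: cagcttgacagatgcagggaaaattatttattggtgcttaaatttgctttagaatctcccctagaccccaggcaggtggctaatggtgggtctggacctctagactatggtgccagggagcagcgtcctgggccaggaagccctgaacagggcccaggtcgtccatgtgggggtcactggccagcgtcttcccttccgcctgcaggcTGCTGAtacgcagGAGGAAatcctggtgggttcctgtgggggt
*Marco* held 1 match, to the PU.1 core, and *Stab1* held 2, 1 of each motif. In windows of 300 bases, which reach 50 bases past the start, the PU.1 core was present in 4 of the 9 members with a window (*Marco*, *Axl*, *Mfge8* and *Stab1*) and in 28.3% of 32851 windows of all genes. The MAF half-site was in 2 of the 9, *Timd4* and *Stab1*, and in 19.5% of all windows. A match says only that these letters are in the window.

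C1q macrophages were next compared by their *Mmp12* and *Gpnmb*, to ask which members went with the state found in fibrotic lung. High and low cells could be compared on days 3, 7, 14 and 28, over 11810 genes. Of the 10 members, *Mfge8* was higher in C1q-high cells, where 4.08% of all genes were higher, and 5 were lower, against 4.56% of genes. *Mfge8* rose by a log2 fold change of 2.99 ± 0.66 (edgeR adjusted p = 0.0237), and it was higher in 4 of 4 libraries. Without day 3, whose high cells owed most UMIs to 3 cells, its log2 fold change was 2.19 and passed, while without day 7 it was 3.28 and did not pass. The largest falls were in *Timd4*, by −5.75 ± 0.55 (edgeR adjusted p = 0.000609), and *Cd163*, by −5.18 ± 0.24 (edgeR adjusted p = 7.69e-06). The size for *Timd4* is set by few UMIs in high cells and was −3.42 without day 28 and −6.93 without day 14. *Stab1* fell by 0.98 ± 0.14 on the log2 scale (edgeR adjusted p = 0.00409), lower in 4 of 4 libraries. The 5 C1q markers summed to 5617, 6873, 8220 and 7792 CPM in C1q-high cells of days 3, 7, 14 and 28. C1q-low cells of the same days held 10220, 10570, 10270 and 10530 CPM. The 6 classical monocyte markers summed to 1035, 161, 64 and 25.7 CPM, against 4252, 516, 205 and 132 in C1q-low cells. The part of either marker set in the member differences was not tested.

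*Gas6* and *Marco* passed less firmly. *Gas6* fell by 0.96 ± 0.20 on the log2 scale (edgeR adjusted p = 0.0174) and was lower in 3 of 4 libraries, but it did not pass without day 7 or without day 28, where it was −0.64. *Marco* fell by 1.09 ± 0.27 (edgeR adjusted p = 0.0365) and did not pass without day 3, without day 28, where it was −0.56, or once called doublets were removed. Its levels in both C1q gates were at the background: the thinned share was not above T and B cells beyond the intervals in any library, and C1q-high cells held 2.22, 22.7, 5.08 and 6.18 CPM on days 3, 7, 14 and 28 against 4.02, 17.5, 8.19 and 6.47 in T cells. The TAM receptors showed no difference past the threshold: *Mertk* was at 0.04 ± 0.10 and *Axl* at −0.23 ± 0.11. *Pros1* and *Msr1*, at −0.17 ± 0.11 and 0.28 ± 0.10, did not pass either. Without the library block 0 members passed in edgeR, with 3 at an unadjusted p under 0.05 (*Gas6*, *Timd4* and *Cd163*). C1q-low cells were not free of the split genes. On days 3 to 28 they held 18.2 to 867 CPM of *Mmp12* and 875 to 1661 CPM of *Gpnmb*. C1q-high cells held 1525 to 4024 CPM of *Mmp12* and 1717 to 3265 CPM of *Gpnmb*.

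The same split of Car4 macrophages was compared in the sham library and on days 7, 14 and 28, over 11901 genes. *Timd4* and *Cd163* had too few UMIs to be tested. Of the 8 other members, 2 were higher in Car4-high cells, against 3.32% of all genes, and 1 was lower, against 1.63%. *Mfge8* rose by a log2 fold change of 2.46 ± 0.24 (edgeR adjusted p = 0.000445), higher in 4 of 4 libraries and past the threshold without any 1 of them. Its thinned share of Car4-high cells was above T and B cells beyond the intervals on days 14 and 28 and not in the sham library or on day 7. The 5 C1q markers moved with the split, summing to 126, 230, 462 and 412 CPM in Car4-high cells of the sham library and days 7, 14 and 28, against 19.9, 193, 299 and 201 in Car4-low cells. Called doublets were 92 of 443 Car4-high and 177 of 3178 Car4-low cells on day 28. *Mfge8* passed with called doublets removed too, and the part of the C1q markers in its difference was not tested. *Marco* fell by 0.85 ± 0.19 (edgeR adjusted p = 0.0275), from 705 to 632 CPM in the sham library, from 574 to 378 on day 7, from 235 to 111 on day 14 and from 170 to 50.3 on day 28. The *Marco* call was lost without day 7, without day 14, without day 28 and with DESeq2. *Stab1* rose by 1.53 ± 0.38 (edgeR adjusted p = 0.048). Its Car4-high levels were low, at 0.835 (1 UMI), 6.52, 1.77 and 2.30 CPM, against 0, 9.55, 1.29 and 1.23 in T cells of the same libraries. The *Stab1* call was lost without each of the same 3 libraries and without called doublets. At a mitochondrial limit of 10%, 1 member was called higher in place of 2, and 2 lower in place of 1. Over all genes that limit called 395 higher and 189 lower, against 395 and 194. *Axl*, at −0.30 ± 0.08 (edgeR adjusted p = 0.0507), and *Pros1*, at −0.27 ± 0.08 (edgeR adjusted p = 0.0736), were just outside the threshold and lower in 4 of 4 libraries. *Mertk*, at −0.09 ± 0.08, *Msr1*, at 0.48 ± 0.16, and *Gas6*, at 0.15 ± 0.43, did not pass. Without the library block 0 members passed in edgeR, and 0 had an unadjusted p under 0.05.

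C1q macrophages were then set against classical monocytes in the sham library and on days 3, 7 and 14, over 10299 genes. Of the 10 members 8 were higher in the macrophages, against 9.21% of all genes, and 0 were lower, against 9.49%. Of those 8, *Marco* and *Cd163* were higher in 3 of 4 libraries and the others in 4 of 4. For *Mfge8* on day 3, 331 of the 463 UMIs of C1q macrophages lay in 3 cells. C1q-low cells of that day held 6.77 CPM of *Mfge8*, below the 12.2 CPM of classical monocytes. On day 14 *Cd163* was at 1.80 CPM in C1q macrophages against 11.0 CPM, from 5 UMIs, in classical monocytes. The thinned share of *Marco* in both C1q gates was at the background, as given above, so its difference is not read as expression. The monocyte level of *Mertk* was above T and B cells beyond the intervals on day 3 only. *Mertk* rose by a log2 fold change of 2.62 ± 0.33 (edgeR adjusted p = 0.0022), *Gas6* by 4.65 ± 0.59 (edgeR adjusted p = 0.00222) and *Mfge8* by 2.51 ± 0.46 (edgeR adjusted p = 0.00902). These 3 passed without any 1 library, though *Gas6* ranged from 3.74 without the sham library to 5.88 without day 7, and *Mfge8* was at 3.30 without day 3. *Axl* was at 1.33 ± 0.38, *Stab1* at 2.64 ± 0.78, *Marco* at 0.95 ± 0.26, *Msr1* at 0.79 ± 0.20 and *Cd163* at 3.59 ± 0.91, with edgeR adjusted p-values from 0.0284 to 0.049. Each of these 5 calls was lost without at least 1 library: *Axl* without the sham, day 7 or day 14 library, *Stab1* without day 3, 7 or 14, and *Marco* without day 3 or 7. *Msr1* was lost without the sham, day 3 or day 14 library and *Cd163* without the sham, day 3 or day 7 library. Sizes also moved, with *Stab1* at 1.64 without the sham library, 3.53 without day 3 and 3.44 without day 7, and *Cd163* at 2.24 without the sham library and 4.36 without day 14. Without the library block only *Mertk*, *Gas6* and *Mfge8* passed, and with DESeq2 6 did, *Marco* and *Cd163* being lost. *Pros1*, at 0.53 ± 0.26, and *Timd4*, at 0.19 ± 0.80, did not pass.

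Car4 macrophages with and without the reporter of monocyte lineage were compared last. After thinning, cells with at least 2 reporter UMIs numbered 151, 30, 53, 433 and 649 from the sham library to day 28, and cells with 0 numbered 4581, 553, 1587, 955 and 2403. The RFP feature of the tables was taken as tdT. Cells with at least 2 UMIs made up 2.67%, 4.41%, 2.86%, 25.1% and 18.0% of thinned Car4 macrophages. Among T cells the same shares were 2.48%, 2.58%, 5.78%, 11.9% and 4.42%. The Car4 share was above T and B cells beyond the intervals on days 14 and 28, whereas in the sham library and on days 3 and 7 reporter-positive cells could not be told apart from cells with free reporter RNA. Of the 8 members tested among 11291 genes, 0 passed in edgeR in either direction, where 0.469% of all genes were higher and 0.133% lower, and 0 passed in DESeq2. At an unadjusted p under 0.05 there was 1 member in each tool, *Marco*. *Marco* was at 635, 453, 279, 77.1 and 55.8 CPM in reporter-positive cells and at 693, 510, 569, 307 and 182 CPM in reporter-negative cells, and so was lower in 5 of 5 libraries. Its log2 fold change was −1.02 ± 0.24 (edgeR, unadjusted p = 0.00188, adjusted p = 0.116). Without the sham library it was −1.28 and passed. *Mfge8* was at 662 CPM in reporter-positive and 404 CPM in reporter-negative cells on day 28, but over 5 libraries its log2 fold change of 0.25 ± 0.24 did not pass.

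Within C1q-low macrophages, cells with a *Cd163* UMI were compared with the rest for the other genes highest in the sham library. Cells with a *Cd163* UMI numbered 21 of 59 in the sham library and 16, 67, 25 and 16 on days 3, 7, 14 and 28. Of those, 81.0%, 87.5%, 82.1%, 20% and 37.5% also had a *Gas6* UMI, against 18.4%, 7.85%, 20.6%, 17.1% and 16.7% of C1q-low cells without *Cd163*. *Timd4* was found in 47.6%, 68.8%, 25.4%, 20% and 31.3% of the *Cd163* cells and in 0.571% to 5.33% of the others. These shares were not thinned, and the median UMI counts of *Cd163* cells were 8731, 22172, 12913, 23380 and 15440, against 12765, 14544, 15318, 23717 and 17517 in the others. On day 14 the shares of *Gas6* were close, and after bleomycin the *Cd163* cells were few beside all C1q-low cells with *Gas6*. *Stab1* stood at 1138, 401, 562, 84.5 and 412 CPM in the *Cd163* cells, and at 176, 92.4, 146, 30.7 and 53.4 CPM in the others. *Axl* ran the other way, with a UMI in 47.6%, 68.8%, 40.3%, 76.0% and 68.8% of *Cd163* cells against 73.7% to 93.5% of the others. Its intervals were apart on days 7 and 14 and overlapped in the sham library and on days 3 and 28. Cells chosen by 1 gene are not a cell type, and these shares carry no test.

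**Figure D5:**
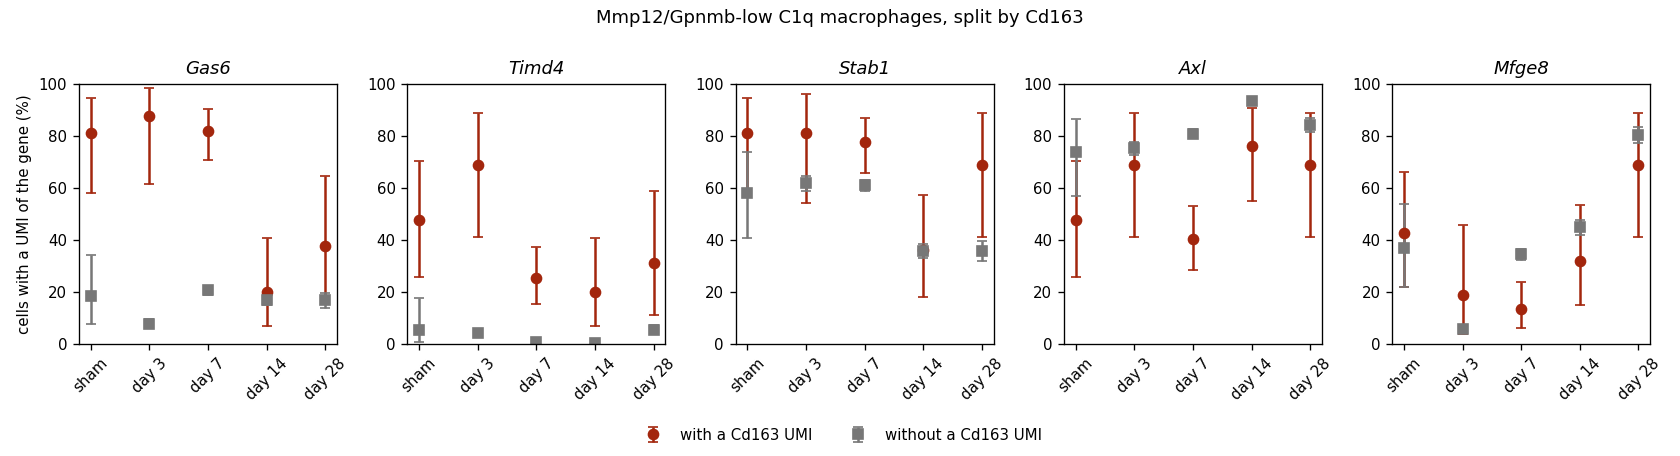
Percentage of C1q-low macrophages with a UMI of *Gas6*, *Timd4*, *Stab1*, *Axl* and *Mfge8*, by library, for cells with a *Cd163* UMI and cells without one, with 95% binomial intervals. *Gas6* reaches 81.0% of *Cd163* cells against 18.4% of the others in the sham library. *Axl* is less frequent in *Cd163* cells in every library, with intervals apart on days 7 and 14 only.

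Genes were also compared by their levels over the 23 sums of macrophages and monocytes with at least 50 cells. These correlations of log2(CPM + 10) are a description, since the sums share libraries, depth and gates. Among members, *Gas6* ran with *Cd163* (Pearson r = 0.914) and with *Stab1* (0.876). *Mertk* ran with *Axl* (0.899) and with *Pros1* (0.808). *Stab1* and *Marco* ran against each other at −0.524. Over 4801 genes that were in no gate, the closest to *Gas6* were *Cbr2*, *Pf4* and *Folr2* (0.955, 0.943 and 0.943). Those closest to *Cd163* were *Fxyd2*, *Cd209f* and *Igfbp4* (0.963, 0.962 and 0.952), and to *Stab1* *Maf*, *Ctla2b* and *Ccl8* (0.932, 0.924 and 0.909). *Timd4* had its closest genes at lower values, in *Ednrb*, *Tagap* and *Lyve1* (0.825, 0.802 and 0.798). *Mertk* was closest to *Dmxl2*, *F7* and *Slc38a6* (0.973, 0.972 and 0.972), and *Axl* to *F11r*, *Dirc2* and *Eepd1* (0.956, 0.928 and 0.921). *Pros1* ran close to *Lpin1* and *Myo7a* (0.962 and 0.958), and *Marco* was closest to *Phgdh*, *Perp* and *Abhd17c* (0.966, 0.956 and 0.952). *Mfge8* was closest to *Pam*, *Apbb2* and *Pianp* (0.914, 0.908 and 0.893), and *Msr1* to *Rab7b*, *Esyt1* and *Got1* (0.872, 0.863 and 0.863).

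A list of 60 other genes of dead-cell uptake and scavenging, of which 59 were in the tables, put the members beside their pathway. In C1q against Car4 macrophages 19 of 51 tested were higher, against 19.0% of all genes, and 15 lower, against 19.5%, with a median log2 difference of 0.07. The largest were *Cd209f*, a lectin of interstitial macrophages, at 6.28, *Cd5l*, a secreted scavenger protein, at 5.999 and *Cx3cr1*, the fractalkine receptor, at 4.81. On the lower side stood *Olr1*, an oxidised lipoprotein receptor, at −2.60, *Pparg*, a lipid-sensing nuclear receptor of alveolar macrophages, at −2.08, and *Mrc1*, the mannose receptor, at −1.62. The scavenger receptors were thus divided between the gates, as *Marco* and *Cd163* were.

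Between C1q-high and C1q-low cells 5 of 51 listed genes were higher, against 4.08% of all genes, and 7 lower, against 4.56%. *Cd36*, a fatty acid and oxidised lipid receptor, was at 1.72, *Anxa1*, a phosphatidylserine-binding annexin, at 0.93 and *Lrpap1*, a chaperone of the receptor *Lrp1*, at 0.83. *Cd209f* at −5.29, *Cd5l* at −3.14 and *Thbs1*, a bridging matrix protein, at −1.84 were lower, beside *Cd163*, *Timd4* and *Stab1*. In Car4 macrophages 10 of 49 were higher in high cells, against 3.32% of all genes, and 2 lower, against 1.63%. *Cd36* and *Lrpap1* were again among the largest, at 1.28 and 0.91, after the scavenger receptor and chemokine *Cxcl16* at 1.59. *Pparg*, at −0.35, and *Scarb1*, a lipoprotein receptor, at −0.41, were the lower genes. The 2 comparisons share libraries but no cells.

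Against classical monocytes 17 of 47 listed genes were higher in C1q macrophages, against 9.21% of all genes, and 6 lower, against 9.49%, with a median log2 difference of 0.42 against 0.05 over all genes tested. *Cd5l* at 7.05, the lipid receptor *Trem2* at 3.86 and the cholesterol exporter *Abca1* at 3.19 led. *Thbs1* at −1.73, the lysophospholipid-responsive receptor *Gpr132* at −1.64 and *Scarb1* at −1.28 were lowest. For the reporter 2 of 48 passed, *Cxcl16* at 0.70 and *Socs3*, a brake on cytokine signalling, at 0.61, both higher in reporter-positive cells, where 0.469% of all genes were, and 0 were lower, against 0.133%. The genes of this list named here passed an adjusted p of 0.05 in edgeR over all genes, and the largest of their adjusted p-values was 0.0442.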

How the data were processed

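Lung cells of 5 libraries, 1 per group, were run with the 10x Genomics 3′ kit (v3.1 chemistry). The authors deposited unnormalised UMI counts of every gene in each barcode, made with Cell Ranger 6.0.0 on mm10 (the GRCm38 assembly), per the submitters' processing notes. The members and gene lists were chosen with earlier results of these data known.

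A barcode was kept if it held 300 to 8000 genes and 800 to 60000 UMIs, of which less than 15% were mitochondrial. Each was scored on 17 marker lists, every marker being scaled to its 99th percentile, and was gated where the best list scored at least 0.25 and led the next by 0.05. These 2 limits were set after the distribution of scores was seen. Doublets were kept in the main values, and 3243 barcodes were called by Scrublet (scanpy 1.11.5, at 0.8% per 1000 barcodes) for an alternative. UMIs were summed by gate and library. Gates with at least 20 cells in a library were tested with edgeR 4.0.16 (R 4.3.3; quasi-likelihood, TMM, filterByExpr, library as a block, Benjamini-Hochberg over all genes, threshold 0.05). Intervals and thinning to 2000 UMIs used Python 3.11.15 with numpy 2.4.6, pandas 2.3.3 and scipy 1.17.1. Thinning left out 449 shallower macrophages and monocytes. The scripts were tested on simulated data.

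Named genes were all members, from the list of 60 the 3 with the largest past-threshold change in each direction of each comparison, and the 3 closest in level to each member among genes reaching 50 CPM in a sum, apart from genes not reported here. Alternatives were DESeq2 1.42.0, no low-count filter, no library block, each library left out, a mitochondrial limit of 10%, doublets removed, 4624 UMIs as a floor, a gate lead of 0.15, per-cell means, no thinning, and reporter limits of 1 and 3 UMIs.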

Additional observations from a re-analysis of the deposited data

Results flagged for a closer look

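*Stab1* differed in opposite directions with the *Mmp12* and *Gpnmb* split in the 2 macrophage gates. Its log2 fold change, high against low, was −0.98 in C1q macrophages, lower in 4 of 4 libraries, and 1.53 in Car4 macrophages, higher in 4 of 4 libraries. The difference between the gates was not tested. In Car4-high cells *Stab1* held 0.835, 6.52, 1.77 and 2.30 CPM in the sham library and on days 7, 14 and 28. T cells of the same libraries held 0, 9.55, 1.29 and 1.23 CPM.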

How the results depend on the processing

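With 1 library per group, no difference between days could be tested, and comparisons between gates used libraries of different days as replicates. The 59 C1q-low cells of the sham library limit every sham value of that gate. Of the alternatives to the member differences, 460 kept direction and side of the threshold, 53 lost and 12 gained a call, and 13 turned direction.

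Without the library block, members called numbered 8 for C1q against Car4 macrophages (1483 genes higher and 1549 lower over all genes, against 2442 and 2507), 0 for the C1q split, 0 for the Car4 split and 3 for C1q macrophages against classical monocytes (362 and 327 genes, against 949 and 977). The calls lost in the first of these were *Mertk* and *Mfge8*. Without the low-count filter 5 members were called in the Car4 split (446 genes higher and 599 lower over all genes, against 395 and 194) and 1, *Marco*, for the reporter (155 and 146 genes, against 53 and 15). Without the filter, the C1q split called 733 genes higher and 874 lower, against 482 and 538, and the monocyte comparison 1427 higher and 1019 lower. With doublets removed 5 members were called against monocytes in place of 8. A reporter limit of 3 UMIs called 1 member, *Marco* (67 and 85 genes), and DESeq2 called 98 and 40 genes for the reporter. Leaving out each library in turn gave 1 to 3 members in the Car4 split, 4 to 5 against monocytes, 0 to 1 for the reporter, 4 to 6 in the C1q split and 9 to 10 for C1q against Car4 macrophages. Over all genes, leaving out a library gave as few as 200 genes higher and 296 lower in the C1q split (without day 7), 113 and 29 in the Car4 split (without day 28), 453 and 361 against monocytes (without day 3) and 13 and 5 for the reporter (without day 7). Without the sham library the reporter gave 122 and 132.

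The differences that turned direction had not passed the test, and the cause was not tested. With 1 library left out, *Mertk* in the C1q split ranged from −0.0412 (without day 28) to 0.11, *Gas6* in the Car4 split from −0.055 (without day 14) to 0.36 and *Timd4* against monocytes from −0.86 (without the sham library) to 0.55. For the reporter, *Mfge8* ranged from −0.0835 (without day 28) to 0.43 and *Stab1* from −0.43 to 0.11 (positive without sham and without day 14). Also for the reporter, *Axl* (0.0034), *Pros1* (0.0102) and *Stab1* (0.11) turned at a limit of 3 UMIs, *Stab1* at a limit of 1 (0.0109) and with stricter gates (0.10), *Mfge8* with DESeq2 (−0.14) and *Msr1* without the block (−0.0168).

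Of 181 levels of at least 10 CPM, per-cell means moved 14 by over 1.5 times, stricter gates 8, doublet removal 3, and the mitochondrial limit and the UMI floor 1 each.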
